A study of Mus musculus with 8 samples.

Results

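The ATP-binding cassette (ABC) genes form a large family of membrane pumps and related ATPases, among them the pumps that carry anticancer drugs out of cells. Members were taken by name alone, as every protein-coding mouse gene whose symbol starts with Abca to Abcg followed by a number. The GENCODE M21 annotation lists 50 such genes, of which 41 were among the 16341 genes of the count table. The labelled comparison is between the fractions of the 4T1 line, a mouse mammary carcinoma line, that carry and lack the surface protein SCA1 (the product of Ly6a). The study asked, among other things, how tumour cells that carry SCA1 relate to drug treatment, so the pumps bear on one of its questions.

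Bulk RNA was sequenced from 8 libraries, 4 of cells sorted as CD45- Sca1+ (4T1-Sca1+) and 4 of cells sorted as CD45- Sca1- (4T1-Sca1-). Both fractions come from the same parental line, no treatment, time or engineered allele is given for either, and the gate against CD45 was common to both. The source label and the study's text give the parental 4T1 line as the origin, although the extraction text speaks of stained tumour. No label says that libraries of a group came from separate cultures or animals, so the p-values below measure the spread between these samples, which may be technical. Total counts ranged from 13561804 to 16968215 per library. Ly6a gave 161, 193, 145 and 168 normalized counts (raw counts scaled to a common library size) in 4T1-Sca1+ replicates 1 to 4 and 1.91, 4.11, 0 and 1.14 in 4T1-Sca1- replicates 1 to 4, so every library matched its label, which the sort itself set. Epithelial markers were abundant in both fractions, but differed in both directions: Krt8 and Krt18 rose (log2 0.31 ± 0.04 and 0.38 ± 0.04), Krt14 and Cdh1 fell (-0.23 ± 0.06 and -0.69 ± 0.04), and Epcam was not called (3128 ± 101 against 3222 ± 35.2 normalized counts, SD, n = 4). Replicate 3 of 4T1-Sca1+ stood apart from the other libraries of its group: it was the highest or lowest of the 4 for 19 of 24 tested ABC genes and for 69.0% of all tested genes. For some genes the value without it is also given.

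A typical ABC transporter pairs membrane-spanning domains with nucleotide-binding domains that bind and hydrolyse ATP, and full transporters hold both pairs in a single chain while half-transporters join as dimers. The ABCA proteins mostly move lipids, ABCB and ABCC include the multidrug pumps P-glycoprotein and the MRPs, ABCD proteins carry fatty acyl-CoA into peroxisomes or a vitamin out of lysosomes, and ABCG2 is the breast cancer resistance protein. ABCE1 and the ABCF proteins have no membrane domain and act on ribosomes. High levels of the multidrug pumps are a known route of resistance to doxorubicin, methotrexate and other agents in tumour cells.

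The upstream sequences of 4 members from different roles are shown as a description, 2 that were higher in 4T1-Sca1+ (Abca1 and Abcb6) and 2 that were lower (Abcb1b and Abce1). No expression result below rests on these sequences. Each is the 250 bases before the gene's start in RefSeq (GRCm38.p6), written 5′ to 3′ on the gene's own strand, at chr4:53159896-53160145, - strand for Abca1, chr1:75180393-75180642, - strand for Abcb6, chr5:8797897-8798146, + strand for Abcb1b and chr8:79711741-79711990, - strand for Abce1. Capitals mark every match, on either strand, to the GC box GGGCGG, the CCAAT box CCAAT, the E-box CACGTG, the antioxidant response element TGACNNNGC or the xenobiotic response element core GCGTG, and no 2 matches overlap in these windows.
Abca1: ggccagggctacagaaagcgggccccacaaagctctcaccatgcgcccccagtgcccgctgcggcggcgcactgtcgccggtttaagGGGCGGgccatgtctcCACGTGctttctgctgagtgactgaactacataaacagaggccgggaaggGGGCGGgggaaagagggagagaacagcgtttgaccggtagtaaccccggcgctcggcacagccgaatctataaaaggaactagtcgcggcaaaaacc
Abcb6: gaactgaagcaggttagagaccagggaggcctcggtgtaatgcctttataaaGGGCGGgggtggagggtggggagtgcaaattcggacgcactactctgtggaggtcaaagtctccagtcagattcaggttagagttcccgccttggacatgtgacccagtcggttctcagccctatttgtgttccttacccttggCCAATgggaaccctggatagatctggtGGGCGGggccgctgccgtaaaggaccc
Abcb1b: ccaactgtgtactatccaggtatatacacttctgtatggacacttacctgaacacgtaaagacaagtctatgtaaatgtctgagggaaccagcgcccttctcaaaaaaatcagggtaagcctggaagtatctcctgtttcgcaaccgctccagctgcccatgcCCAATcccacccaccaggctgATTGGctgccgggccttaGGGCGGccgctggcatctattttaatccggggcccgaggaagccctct
Abce1: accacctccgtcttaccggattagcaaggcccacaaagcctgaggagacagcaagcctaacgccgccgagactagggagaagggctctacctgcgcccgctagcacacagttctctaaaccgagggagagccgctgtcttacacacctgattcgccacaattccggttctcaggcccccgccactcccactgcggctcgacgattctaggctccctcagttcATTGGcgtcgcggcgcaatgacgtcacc
Abca1 holds 1 E-box and 2 GC boxes, Abcb6 holds 2 GC boxes and 1 CCAAT box, Abcb1b holds 1 GC box and 2 CCAAT boxes, and Abce1 holds 1 CCAAT box. Over the 45 upstream windows found for 38 ABC genes, 20 (44.4%) held a GC box and 13 (28.9%) a CCAAT box, beside 32.7% and 33.8% of all 32851 windows of the same length. An E-box was found in 5 (11.1%, all windows 6.02%), the antioxidant response element in 4 (8.89%, all windows 10.2%) and the xenobiotic response element core in 13 (28.9%, all windows 28.2%). A letter match is a description and not a bound site. No entry was matched for Abca6, Abcb8, Abcc1, Abcc3, Abcc6, Abcc8, Abcd2, Abcd4, Abcg1 and Abcg4, among others.

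Of the 41 counted ABC genes, 24 passed the filter on low counts and were tested, and 17 were too low. Among the 24, 17 passed an adjusted p under 0.05 (edgeR quasi-likelihood test, Benjamini-Hochberg over all 11717 tested genes), a share of 70.8% beside 61.5% of all tested genes. They were split in direction, with 10 higher in 4T1-Sca1+ (all genes, 31.3%) and 7 lower (all genes, 30.2%). The groups' normalized counts did not overlap for 14 of the 24 (58.3%, all genes 54.7%), and 6 changed by at least 0.5 on the log2 scale (all genes, 20.5%). With a background this high, a call by itself marks no ABC gene out. The median log2 fold change (4T1-Sca1+ over 4T1-Sca1- throughout) was 0.11 for the 24 and 0.0074 for all tested genes, and the median absolute log2 fold change was 0.33 beside 0.24. In bulk RNA, fewer cells with a transcript and less of it per cell cannot be told apart.

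By subfamily, the called counts were small, and they stand beside 31.3% higher and 30.2% lower among all tested genes. In ABCA, 3 of 4 tested genes rose and none fell (1 not called). Of the 5 tested ABCB genes described here, 1 rose, 1 fell and 3 were not called. In ABCC, 3 of 5 rose and 1 fell, and of the 2 tested ABCD genes described here 1 rose and 1 was not called. In ABCG, 1 rose and 1 fell, and the 4 tested genes of ABCE and ABCF all fell. Whether the subfamilies differ was not tested.

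**Figure D1:**
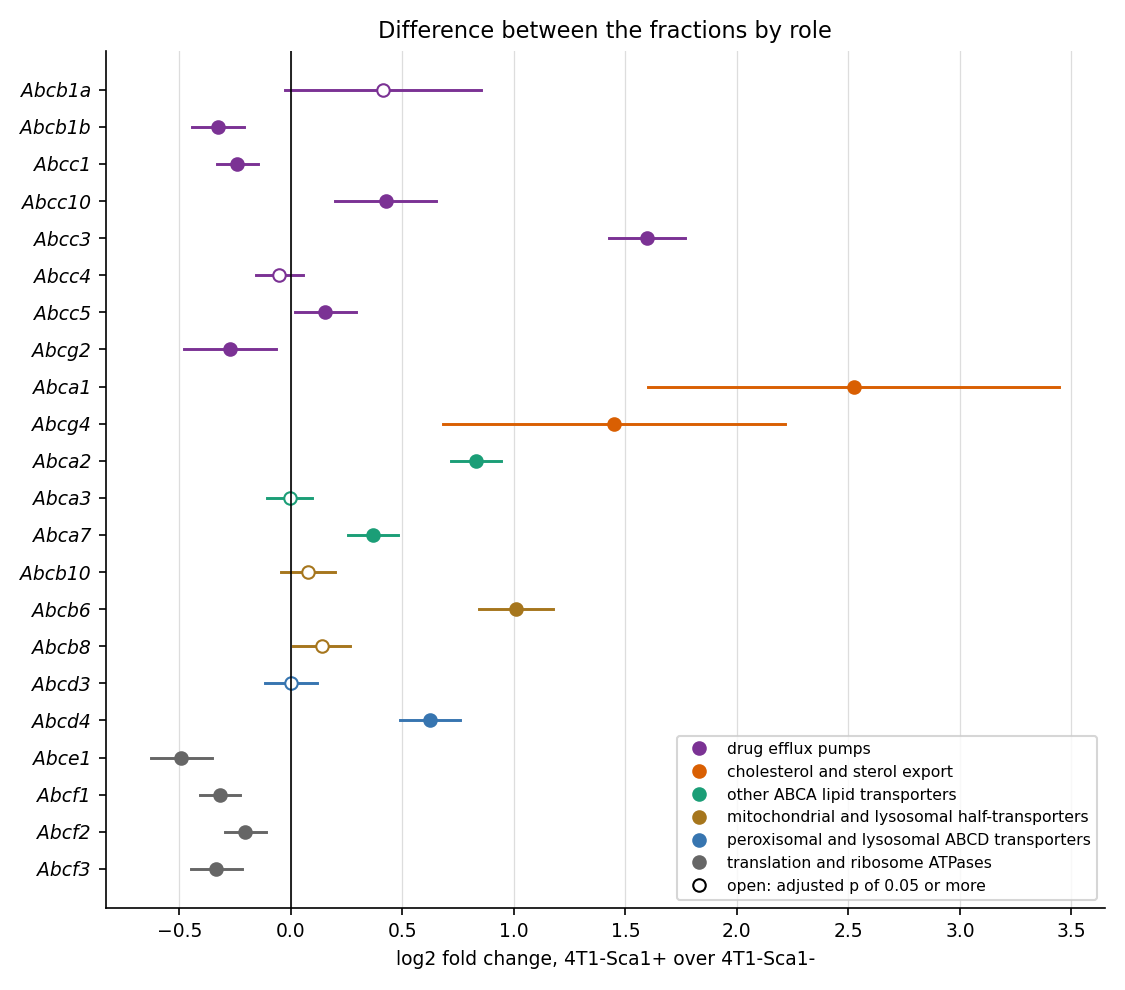
Log2 fold change of 22 of the 24 tested ABC genes (x axis, 4T1-Sca1+ over 4T1-Sca1-), ordered and coloured by role, with 95% intervals from the fit. Filled points have an adjusted p under 0.05 and open points do not; Abcc3 stands at 1.60 among drug efflux pumps that otherwise lie between -0.33 and 0.42.

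Among the drug efflux pumps, Abcc3 was the one with a change above 0.5: it rose 3.02-fold in 4T1-Sca1+. Of the 3 pumps most often tied to multidrug resistance, Abcb1b and Abcc1 were slightly lower. Abcg2 was lower too, but its groups overlapped and its call was lost in 6 of 18 alternatives. Of the 9 genes of this role, 8 were tested, 3 rose (all tested genes, 31.3%), 3 fell (all tested genes, 30.2%) and 2 were not called. Their summed level per length was 53.8 ± 1.76 RPKM (reads per kilobase of exon, scaled to depth) in 4T1-Sca1+ and 53.9 ± 0.706 in 4T1-Sca1- (SD, n = 4), with library values of 51.9 to 55.9 and 53.3 to 54.9. These sums overlap between the groups. Per length, Abcb1b and Abcc1 led in both groups and did not differ beyond their spread in 4T1-Sca1+ (14.6 ± 1.30 and 13.8 ± 0.525 RPKM). Abcc3 was level with Abcc5 in 4T1-Sca1- (2.92 ± 0.392 and 2.99 ± 0.159) and with Abcc4 in 4T1-Sca1+ (8.81 ± 0.555 and 8.79 ± 0.213). Abcg2 (2.18 ± 0.356 and 2.65 ± 0.162), Abcc10 and Abcb1a were below these in both groups, except that Abcg2 came within the spread of Abcc3 in 4T1-Sca1-.

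Abcc3 encodes MRP3, an exporter of glucuronide conjugates, bile salts and methotrexate (chr11:94343295-94392997, - strand, GRCm38). Its normalized counts were 718, 757, 831 and 733 in 4T1-Sca1+ replicates 1 to 4 and 244, 263, 213 and 294 in 4T1-Sca1- replicates 1 to 4. The lowest 4T1-Sca1+ library lay above every 4T1-Sca1- library by a wide margin. The log2 fold change was 1.60 ± 0.08 (SE, adjusted p = 2.09e-11), or 8.81 ± 0.555 against 2.92 ± 0.392 RPKM (SD, n = 4), and it ranged from 1.52 to 1.67 over the alternative settings.

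P-glycoprotein is encoded in the mouse by the neighbouring genes Abcb1a (chr5:8660077-8748575, + strand) and Abcb1b (chr5:8798147-8866315, + strand), whose protein exports doxorubicin among many drugs. Abcb1b gave normalized counts of 1957, 1777, 1586 and 1733 in the 4T1-Sca1+ libraries and 2265, 2168, 2213 and 2278 in the 4T1-Sca1- libraries. Every 4T1-Sca1+ library lay below every 4T1-Sca1- library, with replicate 3 the lowest. It fell by 0.33 ± 0.06 on the log2 scale (SE, adjusted p = 7.64e-05). Abcb1a was far less abundant per length (0.363 ± 0.0689 and 0.274 ± 0.0493 RPKM, beside 14.6 ± 1.30 and 18.3 ± 0.436 for Abcb1b). Its normalized counts were 34.7, 26.6, 23.9 and 35.0 in 4T1-Sca1+ and 20.1, 27.7, 18.9 and 25.1 in 4T1-Sca1-. The groups overlapped, and the log2 fold change of 0.41 ± 0.21 did not pass (adjusted p = 0.0954, 95% interval -0.03 to 0.85), though it did without 4T1-Sca1+ replicate 3 (0.50, adjusted p = 0.0496).

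Abcb1a made up 1.74, 1.48, 1.49 and 1.98% of the reads of the pair in 4T1-Sca1+ replicates 1 to 4 and 0.878, 1.26, 0.848 and 1.09% in 4T1-Sca1- replicates 1 to 4. The shares did not overlap between the groups, but the exact 95% binomial intervals of single libraries did: 0.975 to 2.14% for the lowest 4T1-Sca1+ library and 0.833 to 1.83% for the highest 4T1-Sca1- library, which cover counting error only. This ratio was chosen after its values were seen and was not tested. Of the 50-base stretches of Abcb1a transcripts, 16.3% also occur in Abcb1b, and 11.1% of those of Abcb1b also occur in Abcb1a. With any other gene the shares were 17.6% and 11.6%. Some reads may therefore have been assigned to the wrong copy or lost.

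Abcc1 encodes MRP1, an exporter of glutathione conjugates, anthracyclines and methotrexate. It gave 3232, 3244, 3049 and 3031 normalized counts in 4T1-Sca1+ and 3618, 3848, 3778 and 3714 in 4T1-Sca1-. The groups did not overlap, and the spread within each was small. The gene fell by 0.24 ± 0.04 on the log2 scale (SE, adjusted p = 0.000142), to 13.8 ± 0.525 RPKM from 16.2 ± 0.411.

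Abcg2, whose product exports methotrexate, mitoxantrone and dyes used to gate side populations, stood at 303, 256, 212 and 303 normalized counts in 4T1-Sca1+ and 302, 329, 342 and 346 in 4T1-Sca1-. Replicates 1 and 4 of 4T1-Sca1+ lay just above the lowest library of the other group, while replicates 2 and 3 lay below it. The log2 fold change of -0.27 ± 0.10 passed (adjusted p = 0.0216) but not with library totals as the scaling (-0.23, adjusted p = 0.0509) or with offsets corrected for transcript GC content (-0.15, adjusted p = 0.114). The call was also lost without 4T1-Sca1+ replicate 2 (-0.25), 4T1-Sca1+ replicate 3 (-0.18), 4T1-Sca1- replicate 3 (-0.26) or 4T1-Sca1- replicate 4 (-0.25). The study stated that Abcg2 did not differ between these fractions.

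Abcc4 and Abcc5 encode MRP4 and MRP5, exporters of cyclic nucleotides and nucleotide analogues. Abcc4 gave 867, 855, 824 and 849.8 normalized counts in 4T1-Sca1+ and 867, 863, 926 and 898 in 4T1-Sca1-. The groups overlapped and the difference did not pass (-0.05 ± 0.05, 95% interval -0.16 to 0.05, adjusted p = 0.381). Abcc5 gave 579, 542, 497 and 531 in 4T1-Sca1+ and 508, 451, 494 and 495 in 4T1-Sca1-. These groups overlapped too, since replicate 3 of 4T1-Sca1+ lay among the 4T1-Sca1- values. Its log2 fold change of 0.16 ± 0.06 passed narrowly (adjusted p = 0.0453) and lost its call in 12 of 18 alternatives, among them every omission of a single library except 4T1-Sca1+ replicate 3 (log2 fold changes 0.11 to 0.17) and the fit with the replicate block (adjusted p = 0.0537).

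Abcc10 encodes MRP7, a pump that can carry taxanes. Normalized counts were 175, 202, 244 and 181 in 4T1-Sca1+ and 158, 161, 144 and 137 in 4T1-Sca1-. The groups did not overlap, and replicate 3 of 4T1-Sca1+ was the highest. It rose by 0.42 ± 0.11 on the log2 scale (SE, adjusted p = 0.0024), 0.32 without that library and 0.26 with the GC correction. Its exons overlap those of Dlk2 on the other strand by 51 bases, and reads of the pair cannot be told apart there without strand. Abcc2, the canalicular pump MRP2, had at most 1 count in any library and was not tested.

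**Figure D2:**
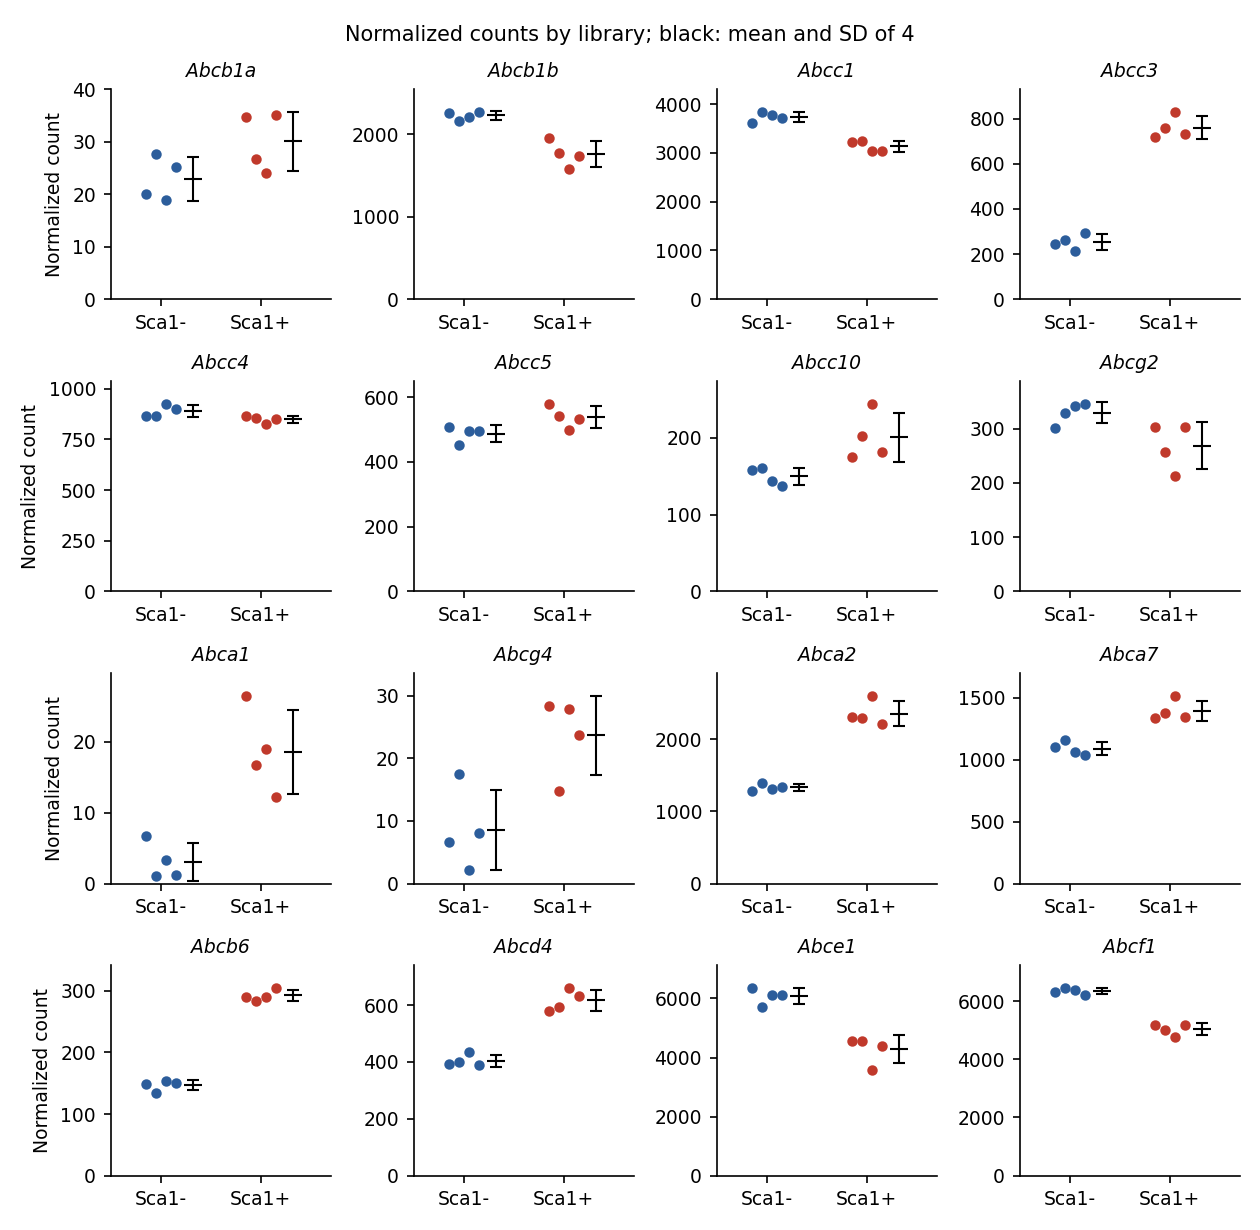
Normalized counts of 16 ABC genes in each library (coloured points, replicates 1 to 4 from left to right), with the mean and SD of the 4 libraries of each group in black; every y axis starts at 0. The groups are well apart for Abcc3, Abca2, Abcb6 and Abcd4, and they overlap for Abcb1a, Abcc4, Abcc5, Abcg2 and Abcg4.

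The cholesterol exporter Abca1 had the largest fold increase of any tested ABC gene, and Abcg4 rose too, both from very low counts. ABCA1 loads cholesterol and phospholipid onto apolipoprotein A-I, and its gene (chr4:53030787-53159895, - strand) gave 26.5, 16.8, 19.0 and 12.3 normalized counts in 4T1-Sca1+ and 6.69, 1.03, 3.34 and 1.14 in 4T1-Sca1-. The groups did not overlap, although replicate 1 of 4T1-Sca1- was well above the other libraries of its group. Abca1 rose by 2.52 ± 0.44 on the log2 scale (SE, adjusted p = 8.2e-05), and by 3.27 without that library. It rests on 79 reads against 12, a ratio of 5.93 after scaling for depth with a 95% counting interval of 3.21 to 12.0. Its level stayed near 0.119 ± 0.0381 RPKM even where it was high.

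ABCG4, a sterol exporter known mainly from brain and haematopoietic progenitors, is encoded by Abcg4 (chr9:44273188-44288615, - strand). This gene gave 28.3, 14.8, 27.9 and 23.6 normalized counts in 4T1-Sca1+ and 6.69, 17.5, 2.23 and 7.99 in 4T1-Sca1-. The groups overlapped, since replicate 2 of 4T1-Sca1- exceeded replicate 2 of 4T1-Sca1+. Abcg4 rose by 1.45 ± 0.36 on the log2 scale (SE, adjusted p = 0.00226), by 2.05 without 4T1-Sca1- replicate 2 and by 1.15 without 4T1-Sca1- replicate 3. Both genes passed the filter on low counts through the group in which they were high. Abcg1, the ABCG partner of ABCA1 in cholesterol export, had 14, 19, 7 and 2 raw counts in 4T1-Sca1+ and 3, 6, 8 and 6 in 4T1-Sca1-, which overlap, and was not tested. The intestinal and hepatic sterol pumps Abcg5 and Abcg8 had at most 1 count in a library.

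Markers of other cell types were read beside these low genes. Of 8 leukocyte markers, all 3 that were tested rose (Cd68, Csf1r and Cd74), beside 31.3% higher among all tested genes. The list summed to 24.4 to 28.0 CPM (counts scaled to library size) in 4T1-Sca1+ against 14.4 to 17.0 in 4T1-Sca1-. Most of that sum was Cd68 (236 ± 18.4 against 152 ± 9.67 normalized counts, SD, n = 4) and Cd74 (125 ± 6.42 against 65.5 ± 15.1). Csf1r, the macrophage growth factor receptor, stood at 39.8 ± 4.79 against 17.8 ± 4.31 normalized counts (SD, n = 4). Other leukocyte markers had few reads. Ptprc (CD45), which the gate selected against, had 2, 2, 2 and 4 raw counts in 4T1-Sca1+ and 0, 1, 1 and 0 in 4T1-Sca1-. Itgam had 3, 3, 1 and 3 against 2, 4, 1 and 4, and Lyz2 and Cd3e had at most 1 and 2 counts in a library. Of 6 fibroblast markers both tested genes rose (Col1a1 and Pdgfra), beside 31.3% higher among all tested genes. The list summed to 39.9 to 42.9 CPM in 4T1-Sca1+ against 24.4 to 28.6 in 4T1-Sca1-. Most of that sum was Pdgfra (560 ± 26.1 against 364 ± 25.6 normalized counts, SD, n = 4). Col1a2 had at most 8 counts in a library and Col3a1 was not counted. The untested fibroblast markers Dcn and Pdgfrb lay mostly in 4T1-Sca1+, like Abca1: Dcn had 15, 14, 6 and 14 raw counts against 1, 1, 1 and 1, and Pdgfrb had 5, 5, 3 and 14 against 0, 1, 0 and 0. Of 5 endothelial markers, Tie1 alone was tested and fell (-0.60 ± 0.19, adjusted p = 0.0121), beside 30.2% lower among all tested genes. The list summed to 2.24 to 2.69 CPM in 4T1-Sca1+ and 2.78 to 4.19 in 4T1-Sca1-. Pecam1, too low to test, had raw counts of 4, 7, 6 and 4 in 4T1-Sca1+ and 1, 2, 0 and 1 in 4T1-Sca1-. The untested Esam had 6, 8, 6 and 4 against 10, 5, 5 and 12, and Cdh5 had 2, 0, 0 and 1 against 1, 2, 3 and 1. Kdr was not counted. The part of these markers of other cell types in any ABC result was not tested.

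Abca2 was the most clearly raised lipid transporter of the ABCA group, and Abca7 rose less. ABCA2 lies in endosomes and lysosomes and handles sphingolipid and cholesterol, and it has been tied to estramustine resistance. Abca2 (chr2:25428703-25448540, + strand) gave 2299.6, 2285, 2598 and 2208 normalized counts in 4T1-Sca1+ and 1284, 1388, 1312 and 1339 in 4T1-Sca1-. All 4 values of 4T1-Sca1+ lay far above those of 4T1-Sca1-, with replicate 3 the highest. The rise was 0.83 ± 0.05 on the log2 scale (SE, adjusted p = 4.66e-10), from 10.5 ± 0.329 to 18.6 ± 1.31 RPKM.

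Abca7, a phospholipid transporter with a role in phagocytosis, gave 1337, 1378, 1514 and 1339 normalized counts in 4T1-Sca1+ and 1102, 1155, 1059.7 and 1035 in 4T1-Sca1-. Those groups did not overlap either. It rose by 0.37 ± 0.05 (log2, SE, adjusted p = 1.22e-05), and by 0.17 with the GC correction. Abca3, the surfactant lipid transporter of alveolar cells, was more abundant per length than Abca2 in 4T1-Sca1- (16.7 ± 0.831 RPKM) but did not pass: 2354 ± 94.3 against 2382 ± 122 normalized counts (SD, n = 4), a log2 fold change of -0.00 ± 0.05 with a 95% interval of -0.11 to 0.10 (adjusted p = 0.939). Its exons overlap those of the antisense gene D330041H03Rik by 914 bases, where reads of the pair cannot be told apart without strand. The other counted ABCA genes were not tested: the highest count in a library was 9 for Abca4, the retinal transporter, 3 for Abca8a, 2 for Abca8b, 2 for Abca12, the keratinocyte lipid transporter, 2 for Abca17 and 1 for Abca5.

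Of the half-transporters of mitochondria and lysosomes, Abcb6 was 2.01-fold higher, while Abcb8 and Abcb10 were not called. ABCB6 is linked to porphyrin transport and carries the Langereis blood group. Abcb6 (chr1:75171717-75180392, - strand) gave 291, 284, 290.3 and 305 normalized counts in 4T1-Sca1+ and 148, 134, 154 and 151 in 4T1-Sca1-. The groups were far apart and tight. Abcb6 rose by 1.01 ± 0.08 on the log2 scale (SE, adjusted p = 6.67e-09), or 3.64 ± 0.110 against 1.81 ± 0.108 RPKM. Its level is uncertain, because 2840 of the 5679 stretches of 50 bases in its transcripts also lie in the overlapping model Gm29253.

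Abcb8 and Abcb10 did not pass. Abcb8, part of a mitochondrial potassium channel, gave 1109 ± 82.3 against 1015 ± 67.4 normalized counts (log2 fold change 0.14 ± 0.06, 95% interval 0.01 to 0.27, adjusted p = 0.0544), and Abcb10, needed for haem synthesis, gave 577 ± 29.4 against 552 ± 10.8 (0.08 ± 0.06, 95% interval -0.05 to 0.20, adjusted p = 0.268). Abcb8 passed under 6 of the 18 alternative settings, and its log2 fold change was 0.00203 with the GC correction. Abcb9, the lysosomal peptide transporter TAPL, had raw counts of 8, 8, 23 and 22 in 4T1-Sca1+ and 4, 7, 7 and 7 in 4T1-Sca1- and did not reach the filter. Without the filter its log2 fold change was 1.11 ± 0.38 (SE, adjusted p = 0.0135), while DESeq2 gave an adjusted p of 0.0548 and limma on the normalized table gave 0.0491.

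In the ABCD subfamily, Abcd4 rose and Abcd3 did not pass. ABCD4 works with LMBD1 in moving vitamin B12 out of lysosomes. Abcd4 (chr12:84601464-84617413, - strand) gave 578, 595, 660.3 and 632 normalized counts in 4T1-Sca1+ and 393, 399, 434 and 388 in 4T1-Sca1-. The groups did not overlap. Abcd4 rose by 0.62 ± 0.06 on the log2 scale (SE, adjusted p = 1.95e-07), and by 0.66 with the GC correction.

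Abcd3, the abundant peroxisomal membrane protein PMP70, gave 864 ± 19.0 against 873 ± 55.0 normalized counts, with a 95% interval of -0.12 to 0.12 for the log2 fold change (adjusted p = 0.992). Of 8 genes chosen as peroxisomal partners of these transporters, 6 were tested. Among these, 1 rose and 1 fell, both by less than 0.5, beside 61.5% called among all tested genes.

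All 4 ATPases that act on ribosomes were lower in 4T1-Sca1+, and 3 of them, Abcf2, Abcf1 and Abce1, were the most abundant ABC transcripts per length. Their summed level was 267 ± 14.0 RPKM in 4T1-Sca1+ and 328 ± 3.97 in 4T1-Sca1- (SD, n = 4), of 421 ± 13.4 and 465 ± 4.10 RPKM for all counted ABC genes. The library sums were 247 to 279 against 325 to 334 and did not overlap.

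ABCE1 splits ribosomes after termination. Abce1 (chr8:79683462-79711740, - strand) gave 4569.9, 4566, 3595 and 4406 normalized counts in 4T1-Sca1+ and 6358, 5711, 6117 and 6109 in 4T1-Sca1-. Replicate 3 of 4T1-Sca1+ was well below the other libraries, and the groups did not overlap. Abce1 fell by 0.49 ± 0.06 on the log2 scale (SE, adjusted p = 4.37e-06), and by 0.42 without that library. ABCF1 takes part in translation initiation, and Abcf1 gave 5185, 5017, 4773 and 5195 against 6321, 6455, 6384 and 6208 (-0.32 ± 0.04, adjusted p = 5.28e-06). The highest 4T1-Sca1+ library lay well below the lowest 4T1-Sca1- library.

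Abcf2 was the most abundant ABC gene per length, at 127 ± 5.40 against 146 ± 3.73 RPKM, and fell least (-0.20 ± 0.04, adjusted p = 0.000638). Abcf3, the counterpart of a yeast protein that works with the GCN2 pathway, gave 979.8, 972, 855 and 971 normalized counts in 4T1-Sca1+ and 1192, 1201, 1162 and 1254 in 4T1-Sca1- (-0.33 ± 0.05, adjusted p = 4.08e-05). As for Abce1, replicate 3 of 4T1-Sca1+ was the lowest library, and the groups did not overlap.

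**Figure D3:**
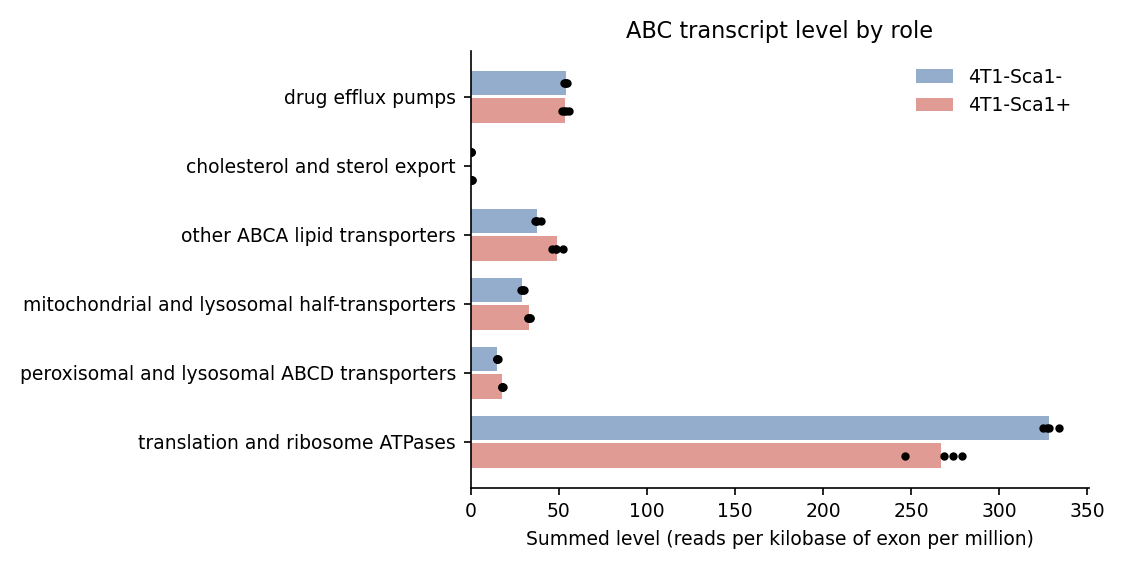
Summed level of the ABC genes of each role in RPKM (x axis, linear from 0); bars are group means and black points the 4 libraries. The ribosome ATPases hold most of the signal, at 247 to 279 in 4T1-Sca1+ and 325 to 334 in 4T1-Sca1-, while the drug efflux pumps sum to nearly the same level in both groups.

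Of 8 genes listed as partners of these ATPases, all tested, 5 fell (all tested genes, 30.2%) and none rose (all tested genes, 31.3%). Whether this list differs from other genes was not tested. Eif2s3x, the gamma subunit of initiation factor eIF2, fell by 0.88 ± 0.06 on the log2 scale (845 ± 71.3 against 1574 ± 61.6 normalized counts, adjusted p = 7.83e-10). Hbs1l, which with PELO rescues stalled ribosomes ahead of ABCE1, fell by 0.63 ± 0.06 (adjusted p = 4.25e-08), and Etf1, the stop codon release factor, by 0.53 ± 0.06 (adjusted p = 1.36e-06). The groups did not overlap for any of these 3 (all tested genes, 54.7%), which were named because they passed and changed by at least 0.5.

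Of 15 genes for sensors of lipids and xenobiotics that act on ABC genes, 9 were tested. Among these, 6 rose (all tested genes, 31.3%) and none fell (all tested genes, 30.2%). Whether this list differs from other genes was not tested. Nfe2l2, which encodes NRF2, the factor that binds antioxidant response elements, gave 2705, 2752, 2399.8 and 2689 normalized counts in 4T1-Sca1+ and 1548, 1439, 1556 and 1522 in 4T1-Sca1- (0.81 ± 0.05, adjusted p = 5.1e-10). The groups were far apart, and Keap1, its inhibitor, was among the other 2 that rose. Ahr, the aryl hydrocarbon receptor, rose by 0.68 ± 0.06 (482 ± 8.09 against 302 ± 21.1, adjusted p = 8.31e-08). Nr1h2, which encodes the oxysterol receptor LXRβ that drives Abca1 in many cells, rose by 0.58 ± 0.07 (adjusted p = 3.16e-06), and by 0.34 with the GC correction. Its partner Rxra rose by 0.61 ± 0.05 (adjusted p = 1.15e-08), and by 0.46 with that correction. Nr1h3, the other oxysterol receptor gene of the list, was lower but not called (-0.29 ± 0.15, adjusted p = 0.115). Whether any of these bears on Abca1 was not tested. The xenobiotic receptor genes Nr1i2 and Nr1i3 and the retinoid receptor gene Rxrg were not counted.

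In cellular cholesterol handling, all 10 genes were tested, 8 rose (all tested genes, 31.3%) and 1 fell (all tested genes, 30.2%). Whether this list differs from other genes was not tested. Apoe, an acceptor of cholesterol from ABC transporters, gave 278, 257, 308 and 284 normalized counts in 4T1-Sca1+ and 131, 149.9, 142 and 135 in 4T1-Sca1- (1.03 ± 0.09, adjusted p = 1.5e-08). The groups were well apart. Insig1, a brake on sterol synthesis, rose by 0.95 ± 0.06 (adjusted p = 1.58e-10), and Mylip, a ligase that degrades the LDL receptor, by 0.62 ± 0.13 (adjusted p = 0.000572).

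Genes of drug handling outside the family split in direction. Of 6 genes for methotrexate uptake and retention, all tested, 1 rose and 3 fell, each by less than 0.5. Of 6 genes for drug export or sequestration without an ABC cassette, 3 were tested, 1 rose and 1 fell. The one that rose was Atp7a, a copper pump tied to platinum export, at 297 ± 17.1 against 211 ± 27.7 normalized counts (0.50 ± 0.09, adjusted p = 0.000111). Of the 3 ABC proteins with other symbols, the antigen peptide transporter genes Tap1 and Tap2 were not called and Cftr had at most 1 count. Over the 8 lists, 44 of 58 genes were tested, 17 rose and 11 fell, beside the 61.5% called among all genes.

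Several well-known ABC genes were at the limit of detection. Abcb4 (the canalicular phospholipid flippase) had at most 5 counts in a library, Abcb11 (the bile salt export pump) 6, Abcb5 1, Abcc8 and Abcc9 (the sulfonylurea receptors) 1 and 4, and Abcc12 2. Abcb4 had 12 reads over the 4T1-Sca1+ libraries against 2, and its adjusted p was 0.0193 by limma on the normalized table, 0.0567 by edgeR without the filter and 0.122 by DESeq2. The pore genes Kcnj8 and Kcnj11 that join the sulfonylurea receptors were not counted. Of the 17 untested members, 11 never exceeded 3 counts in a library, and no difference could be detected for them at this depth. Abca6, Abca9, Abca13, Abca14, Abca15, Abca16, Abcc6, Abcd2 and Abcg3 were not counted.

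Across the alternative settings, 14 of the 16 called members described here kept their call and Abcc5 and Abcg2 did not. The count of ABC genes higher in 4T1-Sca1+ ranged from 9 to 12 and the count lower from 6 to 7. Without 4T1-Sca1+ replicate 3 the counts were 11 higher and 6 lower.

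**Figure D4:**
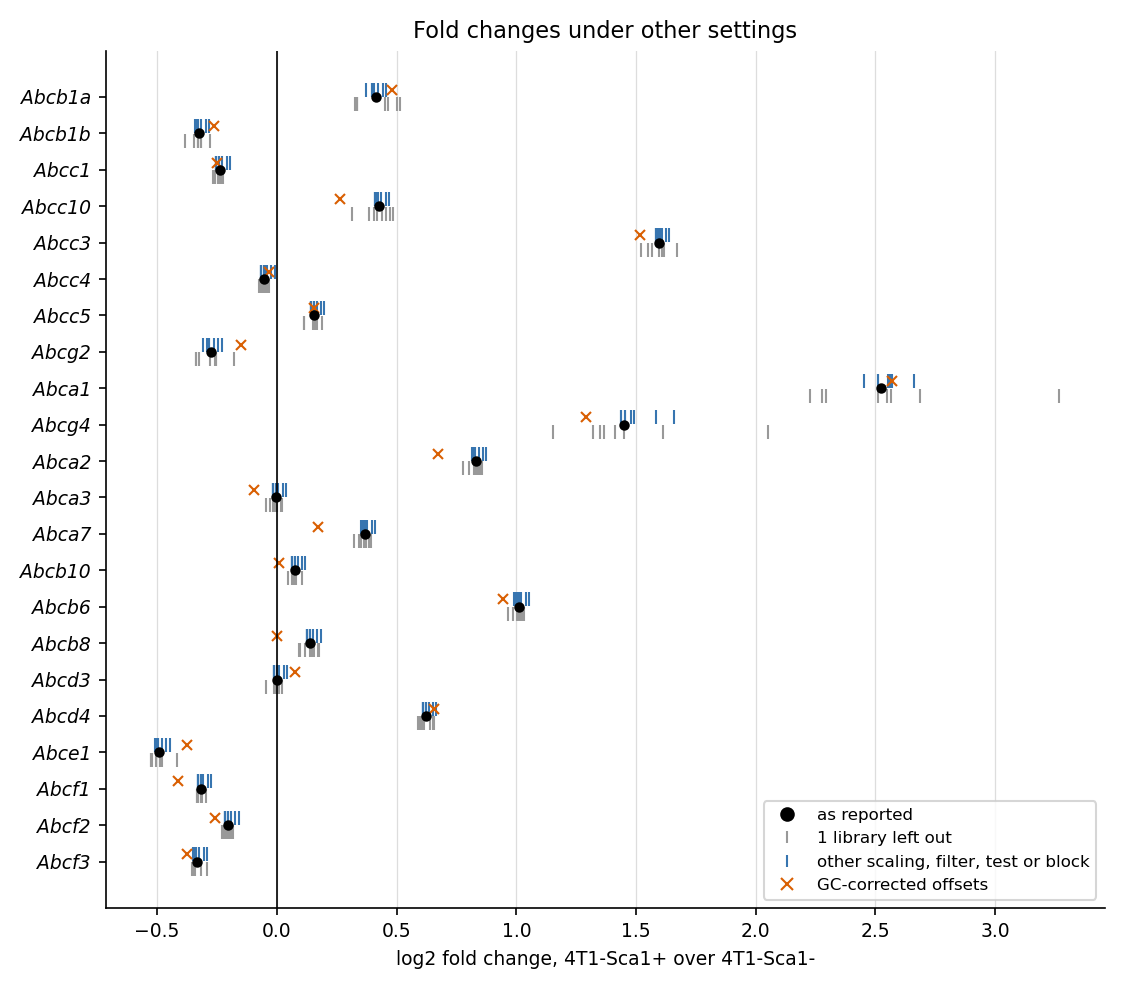
Log2 fold change (x axis) of 22 of the 24 tested ABC genes as reported (black points), with 1 library left out (grey ticks), under other scalings, filters, tests or the replicate block (blue ticks) and with GC-corrected offsets (orange crosses). Abca1 and Abcg4, the genes with fewest reads, move most when 1 library is left out, and Abca7, Abcg2 and Abcc10 shrink most in proportion under the GC correction among called genes.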

How the data were processed

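Per the labels, RNA of sorted 4T1 fractions was made into libraries with the TruSeq RNA V2 kit and run on a NextSeq instrument. The submitters' processing notes name cutadapt 1.16, STAR 2.5.3a and GRCm38. The counting tool, annotation and strand setting are not given in the sources used here. The authors deposited whole-number counts per gene and a normalized signal table, which equals those counts divided by DESeq2 size factors and leaves out 969 genes with at most 1 count in total. Gene IDs were matched to GENCODE M21 (16200 of 16341).

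The counts were fitted with edgeR 4.0.16 (R 4.3.3) by its quasi-likelihood test with TMM scaling and filterByExpr on all 8 libraries, 11717 genes being tested and p-values adjusted by Benjamini-Hochberg over all of them, two-sided. RPKM used union exon lengths and TMM-scaled totals. Alternatives were other scalings and filters, DESeq2 1.42.0, limma 3.58.1 (voom, and log2(value + 1) of the normalized table), the replicate number as a block and omission of each library. GC-corrected offsets were added after seeing the data. The code was tested on simulated data. Counting intervals (95%) cover counting error only.

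The members and the gene lists were chosen with earlier results of these data known. Every counted member is named except a few genes that are included in the counts but not reported here; values in every library are given for all drug efflux genes and for other members with an adjusted p under 0.05 and a log2 fold change of 0.5 or more in size, and for some further members of the same roles chosen after their values were seen. Related genes are named by the same threshold, and others by counts, with Keap1, Nr1h3, Tap1, Tap2, Cftr and markers named after their values were seen. No pair of libraries was found to be a duplicate.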

Additional observations from a re-analysis of the deposited data

Results flagged for a closer look

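In 3 of 66 tests of a group of 4 libraries, 1 library's normalized count lay far from the other 3 by Dixon's criterion (gap to the nearest library over the group's range, at the 95% level). Chance gives about 1 in 20, or 3.3 here. Abce1 stood at 3595 in 4T1-Sca1+ replicate 3, against 4406 to 4569.9 in the others. Abcf3 stood at 855 in the same library, against 971 to 979.8. Abcb10 stood at 568 in 4T1-Sca1- replicate 1, against 545 to 549.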

How the results depend on the processing

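Of 16 called members described here, 14 kept their direction and call under every alternative that tested them; Abcc5 lost its call in 12 and Abcg2 in 6. Abcb8 gained a call in 6, among them library totals (0.18) and the upper-quartile scaling (0.17). Abca1 and Abcg4 were not tested when at least 10 counts were required in every library. Members whose reported log2 fold change was near 0 changed sign. For Abca3 the log2 fold change was 0.0383 with library totals, 0.0246 with the upper-quartile scaling and 0.00640 with at least 10 counts, and it ranged from -0.0442 to 0.0196 with 1 library left out. For Abcd3 these were 0.0420, 0.0286 and 0.0105, with 0.00119 in limma-voom, 0.0756 with the GC correction and -0.0468 to 0.0228 with 1 library left out. With the GC correction Abca3 (-0.09) and Abcb1a (0.48) passed. The cause was not tested in any of these.

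Same-numbered libraries did not deviate together (correlations 0.0957, -0.150, -0.0339 and -0.00107), so no pairing was assumed. With the replicate block, 10 ABC genes were higher and 7 lower, Abcc5 losing its call and Abcb8 gaining one (adjusted p = 0.0324), and Abcd3 stood at 0.000397.

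The median of all genes moved to at most 0.0502 under another scaling. Members below the filter on low counts, such as Abcb9 and Abcg1, have no reported test.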
